A study of Mus musculus with 32 samples.

Results

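The genes described here are those of the cytosolic ribosome in interscapular brown adipose tissue (iBAT), a fat depot of the upper back that burns lipid to make heat. They were taken from the gene count table by name: mouse symbols that begin with Rpl or Rps and a number, together with Rplp0 to Rplp2 and Rpsa, without pseudogenes named with -ps and without the S6 kinase genes (Rps6k), and with at least 320 counts summed over the 32 libraries. Of 50686 genes in the table, 90 fitted. They comprised 42 proteins of the large (60S) subunit, 31 of the small (40S) subunit, the 3 acidic proteins of the P stalk, 13 paralogs or retrocopies that carry such a name, and Rps19bp1, whose product binds Rps19 and is no ribosomal protein. The first 3 classes, 76 genes, are called canonical below. Fau and Rack1 encode ribosomal proteins under other names and lay outside the rule. Of 93 named candidates 3 had fewer than 320 counts: Rpl24 (164 counts), Rps12l1 (24 counts) and Rpl10l (1 count). The members nearest above the limit were Rpl32l with 609 counts and Rpl39l with 662 counts.

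Male C57BL/6J mice aged 10 weeks were fed chow and housed in mild cold under equal periods of light and dark. The labels name no allele and no agent. iBAT was collected at 8 Zeitgeber times (ZT, hours after lights on) 3 h apart, so that ZT0, ZT3, ZT6 and ZT9 fell in the light (inactive) phase and ZT12, ZT15, ZT18 and ZT21 in the dark (active) phase. Each time point had 4 mice and 1 RNA-seq library per mouse, and every mouse gave 1 time point, so a rhythm here is a pattern across animals. The design asks which genes change with time of day.

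A ribosome is assembled from rRNA and, with few exceptions, a single copy of each of its proteins, and its protein genes are among the most abundantly transcribed in a cell. In mammals their mRNAs begin with a cytosine followed by a run of pyrimidines, the 5′ terminal oligopyrimidine (TOP) motif, through which translation of the whole family follows mTORC1 signalling, so that their protein output is set in large part by translation. Mammalian genomes also hold many retrocopies of these genes, that is, intron-free copies of a spliced mRNA inserted elsewhere, most of them annotated as processed pseudogenes.

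Because counts are assigned to genes by sequence, the identity of a gene with its retrocopies bears on its count. The first 60 coding bases of 3 genes and of the retrocopy with most counts are shown because these pairs carry the finding given further below. Letters are those of the annotated transcripts (GENCODE M21, GRCm38), in transcript sense, and a capital marks a base at which the pair differs.
Rpl31: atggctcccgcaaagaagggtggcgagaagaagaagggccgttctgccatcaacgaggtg
Rpl31-ps8: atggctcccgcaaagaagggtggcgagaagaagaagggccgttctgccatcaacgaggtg
Rps27: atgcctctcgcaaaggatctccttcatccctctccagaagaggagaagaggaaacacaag
Rps27rt: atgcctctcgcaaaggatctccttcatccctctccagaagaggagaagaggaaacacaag
Rpl3: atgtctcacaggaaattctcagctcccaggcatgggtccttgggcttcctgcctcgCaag
Rpl3-ps1: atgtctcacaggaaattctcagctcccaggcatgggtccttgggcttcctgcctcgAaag

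Rpl31 (chr1:39367842-39371911, plus strand, 5 exons in the transcript used) and the processed pseudogene Rpl31-ps8 (chr15:90764279-90764656, minus strand) were identical over all 375 coding bases of Rpl31. Rps27 (chr3:90212522-90213651, minus strand, 4 exons) and Rps27rt (chr9:114982366-114982739, minus strand), a retrocopy annotated as protein coding and itself among the 90 genes, were identical over all 252. Rpl3 (chr15:80077791-80091868, minus strand, 10 exons) and Rpl3-ps1 (chrX:13202571-13203780, plus strand) differed at 2 of 1209 coding bases. In all, 399 annotated retrocopies shared at least 1 stretch of 100 bases, the read length, with a canonical gene, and 69 of the 76 canonical genes had at least 1 such retrocopy.

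The TOP motif was looked for as a run of at least 8 C or T letters on the transcript strand. The first letter of the run had to be a C within 10 bases of the annotated start, and the run could extend further. Start windows came from RefSeq (GRCm38.p6) and are shown as 30 bases (10 before and 20 from the start on). Windows were found for 66 of the 90 genes, and 21 of them (31.8%) held such a run, against 7.17% of the 27025 genes with a window. Runs of G or A letters that begin with G, of the same length and place on the transcript strand, were held by 1.52% and 8.43%. These are C and T runs of the other strand that end, rather than begin, with C, so they are not the same motif. Of the windows that held a run, those of the 4 canonical genes with the lowest and the 4 with the highest p for a daily rhythm are shown because they cover both ends of the results, with the run in capitals.
Rpl14: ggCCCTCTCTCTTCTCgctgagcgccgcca
Rpl38: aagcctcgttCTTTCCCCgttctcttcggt
Rps12: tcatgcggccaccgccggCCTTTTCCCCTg
Rpl28: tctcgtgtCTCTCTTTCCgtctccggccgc
Rplp2: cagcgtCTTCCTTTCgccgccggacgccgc
Rpl27a: cgtgagCTCCTCCCTTTTCCCTTTCTgcca
Rpl18: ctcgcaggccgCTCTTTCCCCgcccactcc
Rpl13a: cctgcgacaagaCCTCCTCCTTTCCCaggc

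These windows lie at chr9:120571507-120571536 (plus strand) for Rpl14, chr11:114668570-114668599 (plus) for Rpl38, chr10:23787190-23787219 (minus) for Rps12 and chr7:4792955-4792984 (plus) for Rpl28. The others lie at chr7:141447641-141447670 (plus) for Rplp2, chr7:109519185-109519214 (plus) for Rpl27a, chr7:45718061-45718090 (plus) for Rpl18 and chr7:45128726-45128755 (minus) for Rpl13a. A run was present in 8 of 18 canonical genes with a window that passed the rhythm test given below (44.4%) and in 11 of 38 that did not (28.9%). This is a description of letters near annotated starts, and no test was made of it.

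Libraries held 16300770 to 18254659 counts, of which the 90 genes took 0.42% to 0.59%. Levels are given in CPM, counts scaled to a common library total with TMM factors, over 32 libraries unless a time point is named. The tissue label was met by brown adipocyte markers such as Ucp1, the uncoupling protein of these cells (mean 2209 CPM), and all 15 clock genes looked at had a 24 h rhythm. Skeletal muscle markers ranged from 2.79 to 8139 CPM in sum and were not tied to 1 time point. In bulk tissue fewer cells of a type and less RNA per cell cannot be told apart. Each time point was sequenced on 1 lane (ZT0, ZT3 and ZT6 on lane 2, ZT9, ZT12 and ZT15 on lane 3, ZT18 and ZT21 on lane 4), so differences between time points of different lanes cannot be told apart from differences between lanes.

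Summed over the 90 genes, the level of the family varied little over the day. The sum was lowest at ZT6, with 4946 ± 321 CPM (SD, n = 4), and highest at ZT12, with 5346 ± 298 CPM (SD, n = 4), and 5319 ± 87.0 CPM (SD, n = 4) at ZT18. The mean of the dark phase exceeded that of the light phase by 0.05 on the log2 scale, and ZT12 exceeded ZT0 by 0.05. The 4 libraries of ZT18 (5201 to 5396 CPM) lay above those of ZT3 (highest 5194 CPM) and ZT21 (highest 5162 CPM) and overlapped with those of the other time points. As a score over chosen genes the sum was not tested.

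**Figure D1:**
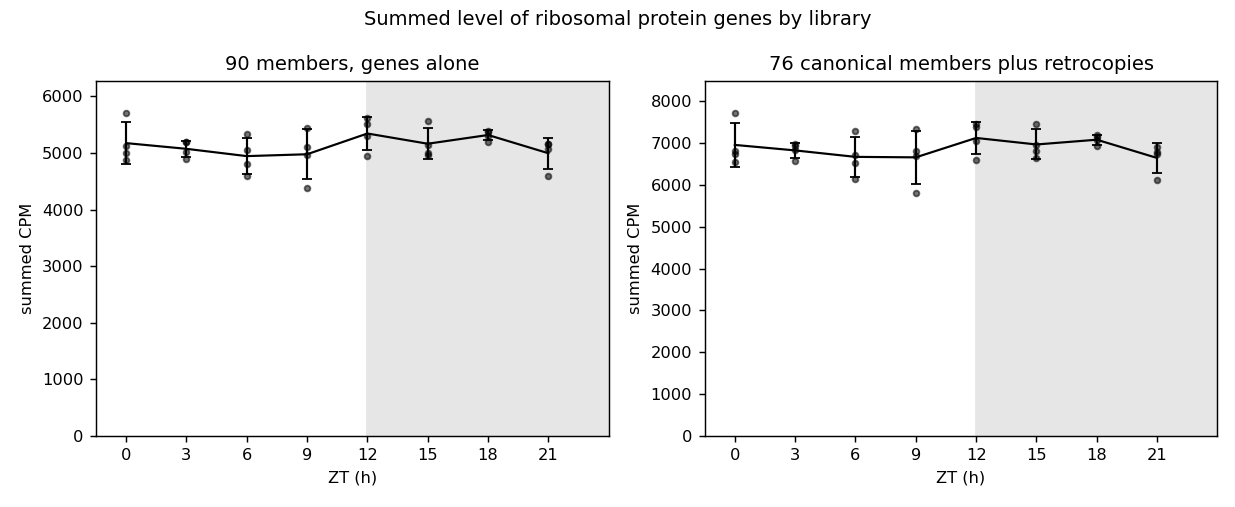
Summed level (CPM, axis from 0) against ZT in hours, as points for the 32 libraries with the mean and SD of 4 mice; grey marks the dark phase. The left panel sums the 90 genes and the right panel the 76 canonical genes with their retrocopies. On the left the ZT18 libraries exceed those of ZT3 and ZT21, on the right they exceed those of ZT21, and ZT18 overlaps with the other time points.

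Single members covered a wide range of levels. Per kilobase of transcript the highest included Rplp1 with 442 CPM per kb and Rplp0 with 249.5 CPM per kb. Both are parts of the P stalk, the arm of the large subunit that recruits translation factors. The lowest were Rpl39l with 1.48 CPM per kb, Rpl17 with 2.60 CPM per kb and Rpl32l with 2.74 CPM per kb. Rpl39l is a paralog known from testis, whereas Rpl17 is a canonical 60S protein near the exit tunnel. Of the counts on Rpl17 and its retrocopies 80.1% lay on the retrocopies, and the part of read assignment in its place was not tested. Its value per kb also rests on the transcript used, which had 1326 bases.

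A 24 h rhythm was tested with a cosine fitted to the counts of all 15505 genes that passed the filter on low counts, which all 90 members did (edgeR quasi-likelihood test, Benjamini-Hochberg (BH) adjusted p under 0.05). The test called 30 of the 90 genes (33.3%), against 35.8% of all genes tested. Called genes lay in both subunits: 16 of 42 in the 60S subunit, 11 of 31 in the 40S subunit, none of 3 in the P stalk (none at unadjusted p under 0.05 either, nor with DESeq2), 2 of 13 paralogs or retrocopies, and Rps19bp1. All 30 peaked in the dark phase by the fit, where 17.6% of all genes tested were called with a dark peak and 18.3% with a light peak. Of the 27 canonical genes called, 23 peaked between ZT16 and ZT20 and 4 between ZT12 and ZT16. Whether or not they were called, 69 of the 76 canonical genes had a fitted peak in the dark phase. The share of all genes tested with such a peak, called or not, was not counted. The median amplitude, the log2 distance from the midline of the cosine to its peak, was 0.08 over the 90 genes and 0.14 over all genes tested.

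**Figure D2:**
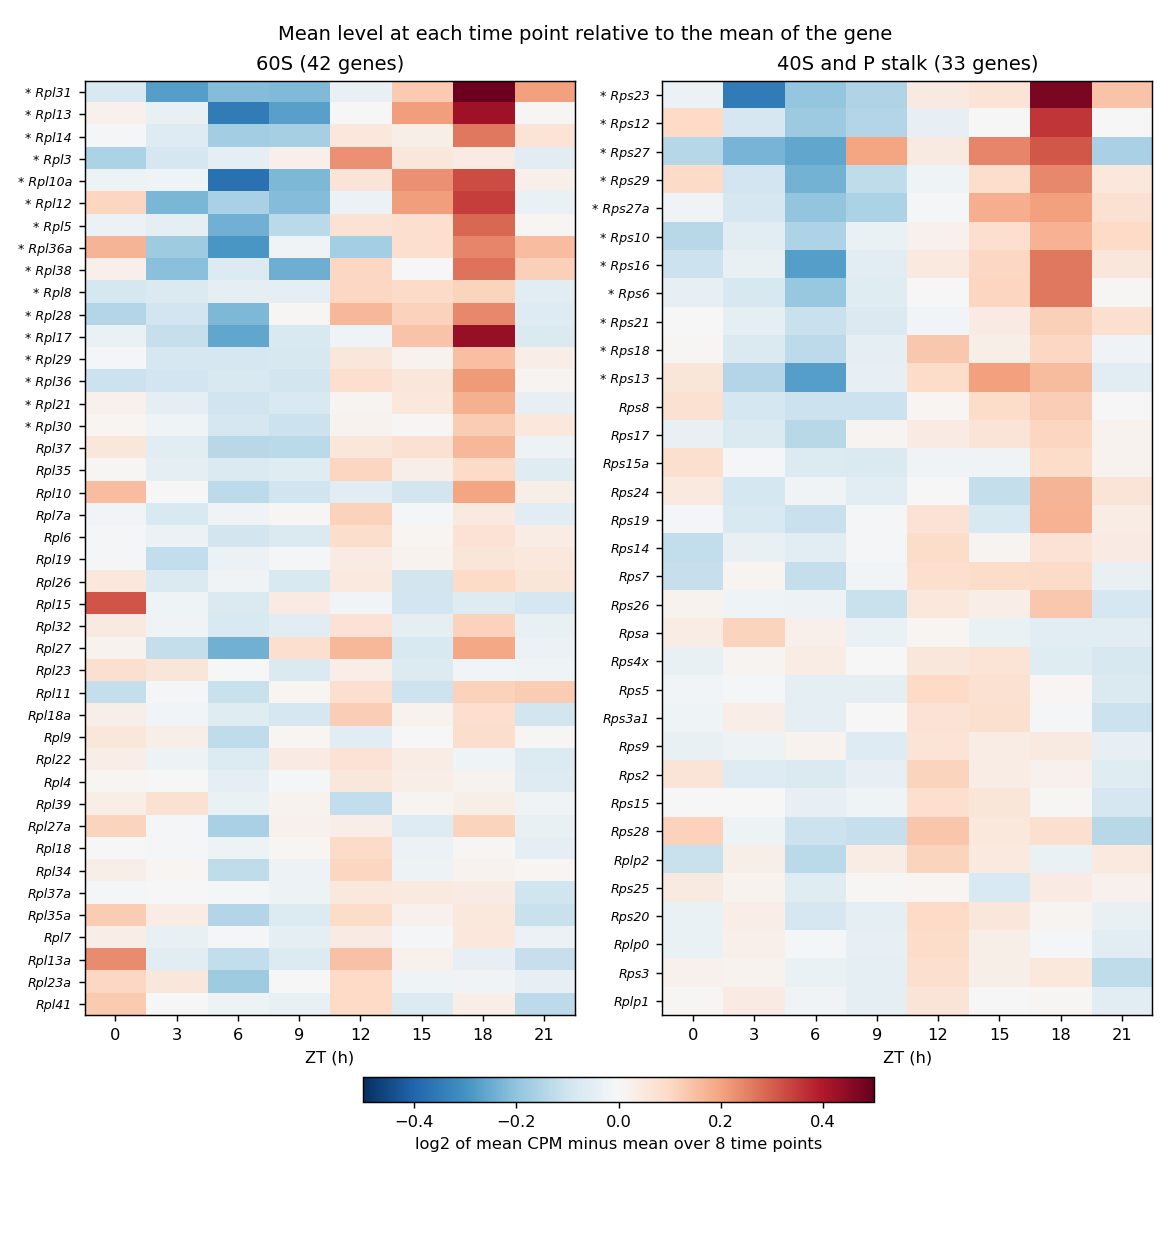
Mean level of each canonical gene at each ZT (hours) as colour, in log2 relative to the mean of that gene over 8 time points, with 42 genes of the 60S subunit on the left and 33 of the 40S subunit and P stalk on the right (1 gene is left out), ordered by p of the cosine test (lowest on top) and marked by an asterisk where called. The ZT18 column is the darkest red in the upper rows and the ZT6 column mostly blue, while the lower rows stay pale throughout.

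Single genes were most often highest at ZT18 and lowest at ZT6. Across the 90 genes the highest mean was at ZT18 in 44 genes, at ZT12 in 22 and at ZT0 in 14, and the lowest was at ZT6 in 42 and at ZT21 in 17. In the 4 libraries of ZT18, 57 to 65 of the 76 canonical genes lay above their own mean over 32 libraries. At ZT6 the number ran from 1 to 43, and at ZT0 from 18 to 71, so libraries of 1 time point differed widely and ZT6 overlapped with its neighbours ZT3 (12 to 43) and ZT9 (10 to 53). Neither these numbers nor the times of highest and lowest mean were counted over all genes tested. The share of counts on mitochondrially encoded genes was 19.6% ± 1.2 (SD, n = 4) at ZT18 and higher at all other time points, and with those genes removed before scaling the cosine test again called 30 members. Markers of stroma, of which 5 of 8 were called with a light peak, summed to 616 to 1326 CPM at ZT6 and 593 to 881 CPM at ZT18, which overlapped. White adipocyte markers, 6 of 8 of which passed the filter and of which Lep was the most abundant, summed to 53.9 to 90.2 CPM at ZT6 and 148 to 262 CPM at ZT18, without overlap. Of these 6 markers 3 were called, Lep with a dark peak and Nnat and Slc7a10 with a light peak. The sums were higher still at ZT15 (228 to 435 CPM). The part of stroma and white adipocyte markers in the result was not tested. Skeletal muscle markers summed to 2.79 to 2056 CPM at ZT6 and 4.19 to 5763 CPM at ZT18, which overlapped, and with their level as a covariate the cosine test called 29 members. Without the 4 libraries of ZT18 the cosine test called 8 members, and 26.4% of all genes tested.

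Among 60S genes, the 3 with the lowest p were Rpl31, Rpl13 and Rpl14. Rpl31, whose product sits near the exit of the nascent chain, had 3.16, 2.90, 2.97 and 3.51 CPM in the 4 libraries of ZT6. At ZT18 it had 5.51, 5.19, 5.18 and 4.58 CPM. The libraries of the 2 time points did not overlap, and only ZT21, with 3.51, 5.40, 4.29 and 3.62 CPM, held another library above 5 CPM. The fitted change was 1.55-fold from trough to peak at ZT17.9 (amplitude 0.32 ± 0.05 SE, adjusted p = 0.000163, edgeR). Rpl13, also of the 60S subunit, had 7.22, 5.97, 7.40 and 7.85 CPM at ZT6 and 11.3, 12.3, 10.7 and 14.3 CPM at ZT18. These groups did not overlap either, and the fitted change was 1.47-fold with a peak at ZT18.1 (amplitude 0.28 ± 0.06 SE, adjusted p = 0.00118, edgeR). Rpl14 was more abundant, with 22.1, 29.8, 27.8 and 29.5 CPM at ZT6 and 33.0, 38.6, 39.2 and 36.8 CPM at ZT18. Its change was 1.26-fold with a peak at ZT18.2 (amplitude 0.17 ± 0.04 SE, adjusted p = 0.00161, edgeR).

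Of the other 60S genes past the threshold, Rpl3 and Rpl8 peaked earliest or were most abundant. Rpl3, a protein next to the peptidyl transferase centre, had 49.3, 58.7, 55 and 54.3 CPM at ZT0 and 72.8, 73.9, 63.9 and 73.3 CPM at ZT12. The groups did not overlap, and the fitted peak was at ZT13.0 with a 1.21-fold change (amplitude 0.14 ± 0.03 SE, adjusted p = 0.00161, edgeR). Rpl8 was the only called member with a mean of 100 CPM or more. It had 140, 167, 154 and 154 CPM at ZT0, 171, 180, 163 and 187 CPM at ZT12 and 175, 180, 178 and 172 CPM at ZT18. The ZT18 libraries all exceeded those of ZT0, whereas ZT12 and ZT0 overlapped. The fitted change was 1.16-fold (amplitude 0.10 ± 0.02 SE, peak ZT14.8, adjusted p = 0.00546, edgeR). Rpl41, which encodes the smallest ribosomal protein, had the highest p of the subunit (0.943), with a mean of 139.8 CPM and a 1.02-fold fitted change.

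Among 40S genes, Rps23, Rps12 and Rps27 had the lowest p. Rps23, which reaches into the decoding centre, had 2.52, 3.27, 2.61 and 2.29 CPM at ZT3 and 5.12, 5.24, 5.07 and 3.44 CPM at ZT18. All ZT18 libraries exceeded those of ZT3, replicate 4 by least, and the fitted change was 1.47-fold with a peak at ZT17.4 (amplitude 0.28 ± 0.06 SE, adjusted p = 0.0015, edgeR). Rps12 changed 1.28-fold (amplitude 0.18 ± 0.04 SE, adjusted p = 0.0041). Rps27 had 2.21, 1.54, 2.24 and 1.95 CPM at ZT6 and 2.81, 3.37, 3.10 and 2.51 CPM at ZT18, without overlap. Its fitted peak was at ZT14.5 (amplitude 0.25 ± 0.06 SE, adjusted p = 0.00709). Rps3, at the mRNA entry channel, had the highest p of the subunit (0.615), at 139.8 CPM.

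No gene of the P stalk passed the test. Rplp0, the stalk base and a common reference gene in quantitative PCR, had 307, 351, 336 and 330 CPM at ZT0, 346, 388, 331 and 378 CPM at ZT12 and 316, 338, 348 and 346 CPM at ZT18. The 3 groups overlapped, and the fitted amplitude was 0.03 ± 0.03 SE (adjusted p = 0.615). Rplp1 had an amplitude of 0.01 ± 0.03 SE (adjusted p = 0.951), the smallest among members of at least 10 CPM, followed by Rpl41 and Rpl7. Rplp2 had an amplitude of 0.06 ± 0.05 SE (adjusted p = 0.515).

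**Figure D3:**
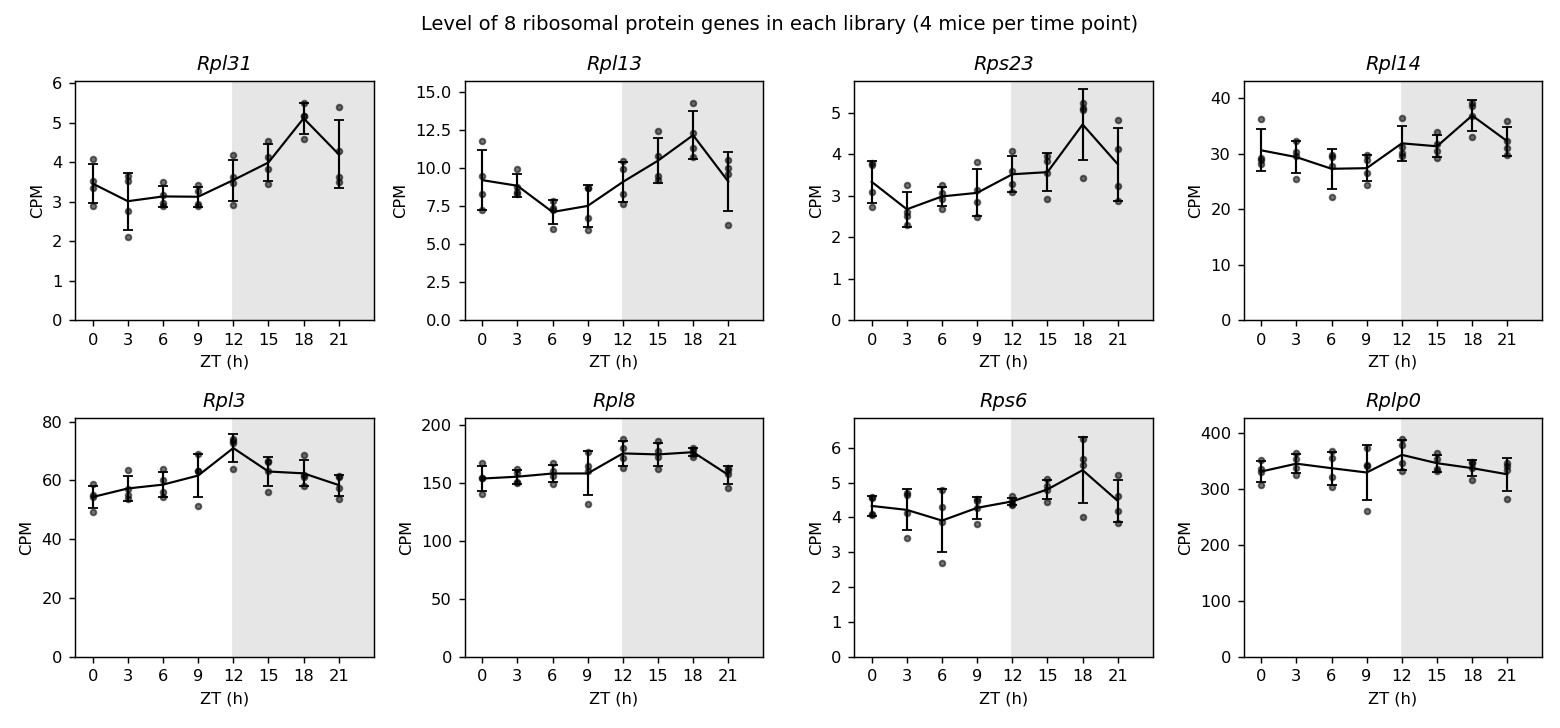
Level (CPM, axes from 0) of 8 canonical genes against ZT in hours, as points for each library with the mean and SD of 4 mice; grey marks the dark phase. Rpl31, Rpl13, Rps23, Rpl14 and Rps6 are highest at ZT18, Rpl3 at ZT12, and the abundant Rpl8 and Rplp0 move little relative to their level.

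Other tests of time gave fewer calls. A test of any difference between the 8 time points called 18 of the 90 genes, against 39.3% of all genes tested, and 17 of the 18 were also called by the cosine test (Rps24 was the other). JTK, the rank test of the study, called 18 genes at BH adjusted p under 0.05, against 27.1% of all genes, and 28 at unadjusted P under 0.05, against 36.4%. All 18 were also called by the cosine test.

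Between lanes and within them the calls were fewer still. With lane as an additive factor beside the cosine, 3 of the 90 genes were called, against 16.9% of all genes: Rpl12 (adjusted p = 0.00677), Rpl13 (0.0183) and Rpl10a (0.0315). Rpl10a and Rpl12 lie at the L1 stalk and the base of the P stalk. Within lane 2, 2 genes differed between ZT0, ZT3 and ZT6, against 12.9% of all genes, the paralog Rpl7l1 (adjusted p = 0.0189) and the retrocopy Rps4l (adjusted p = 0.0351). With 1 library of that lane left out, the number of members called ran from 0 to 5. Within lane 3 (1.81% of all genes called) and lane 4 (4.64%) edgeR called none, while 3 and 22 members respectively had an unadjusted p under 0.05. The shares of all genes at that unadjusted threshold are not given here, so these 2 numbers cannot be set against all genes. The lowest adjusted p was 0.256 in lane 3 and 0.0791 (Rps26) in lane 4, and DESeq2 called none in lane 3 and 1 in lane 4.

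ZT12 and ZT0, when the dark and the light phase begin, were compared because other mice of the study were examined then. Of the 90 genes 2 differed, against 15.7% of all genes tested, of which 7.67% were higher and 8.03% lower at ZT12. Rpl3 was higher at ZT12 by 0.39 ± 0.08 SE on the log2 scale (adjusted p = 0.0017, edgeR). Rpl7l1, a paralog of Rpl7, was lower at ZT12 by 0.41 on the log2 scale (log2 difference −0.41, adjusted p = 0.0255). It had 44.5, 49.4, 53.9 and 41.6 CPM at ZT0 and 40.4, 37.0, 31.2 and 33.8 CPM at ZT12, without overlap.

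Between the means of the dark and the light phase, 17 of the 90 genes differed and all were higher in the dark. Of all genes tested, 6.94% were higher and 7.09% lower in the dark. The lowest p were those of Rpl31 (log2 difference 0.39 ± 0.08 SE, adjusted p = 0.00116), Rpl38, a protein known for its role in translation of Hox mRNAs, and Rpl10a (0.32 ± 0.08 SE, adjusted p = 0.00466). Over the 76 canonical genes 68 had a higher mean in the dark, which was not counted over all genes tested. The median difference was 0.07 over the 90 genes against −0.01 over all genes tested. Without the ZT18 libraries 2 of the 90 genes were called, and 7.81% of all genes tested in either direction, against 14% with them.

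Steps of 3 h were mostly within the spread. From ZT0 to ZT3, 2 genes fell, Rpl7l1 by 0.45 and Rpl36al by 0.27 on the log2 scale (6.48% of all genes fell). From ZT15 to ZT18, 2 genes rose, Rps4l by 0.51 and Rps24 by 0.29 (0.4% of all genes rose), and this step crosses from lane 3 to lane 4. From ZT21 to ZT0 Rpl15 rose by 0.39 (3.41% of all genes rose).

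Size of rhythm and level were tied together among the canonical genes. Of the 20 canonical genes with a mean under 10 CPM the cosine test called 17, with a median amplitude of 0.18, whereas of all tested genes under 10 CPM 27.2% were called, and of those of 2 to 10 CPM 32.9%. Of the 56 canonical genes of 10 CPM or more it called 10 (all tested genes 42.9%), and of the 18 of 100 CPM or more only Rpl8 (all tested genes 43.7%). The same tie of amplitude and level was seen over all tested genes, whose median amplitude was 0.20 under 10 CPM, 0.16 at 2 to 10 CPM and 0.11 at 10 CPM or more. Among the canonical genes of 10 CPM or more the median amplitude was 0.06. Over the 76 genes Spearman's rho between amplitude and mean CPM was −0.707, as a description of genes measured in the same libraries.

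These low counts went together with counts on retrocopies. Over all libraries 2717594 counts lay on the 76 canonical genes and 1106454 on retrocopies that share a 100-base stretch with them, 28.9% of the 2 together. In 29 of the 76 families the retrocopies had more counts than the gene. Rps27 had 1338 counts and Rps27rt 22302, and Rpl31 had 2065 counts and Rpl31-ps8 13119, the pairs of identical coding sequence given above. Rps29 had 3685 counts and its retrocopy 60813. Rps16 had 2246 counts and Rps16-ps2 40343, and Rps6, the substrate of the S6 kinases, had 2497 counts and Rps6-ps4 18300. Spliced mRNA of the gene and RNA of the retrocopy cannot be told apart from reads that lie within shared stretches, and how the authors treated reads with several matches is not given in the sources used here.

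The retrocopy with most counts held the whole coding sequence of the gene, base for base, in 15 of 69 families, and 14 of these 15 were among the 29 with more counts on retrocopies than on the gene. Of those 15 genes the cosine test called 12, where it called 35.8% of all genes tested. Of the 29 genes with fewer counts than their retrocopies it called 18, and of the other 47 it called 9. Spearman's rho over the 76 genes between amplitude and the percentage of family counts on retrocopies was 0.605, again as a description.

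**Figure D4:**
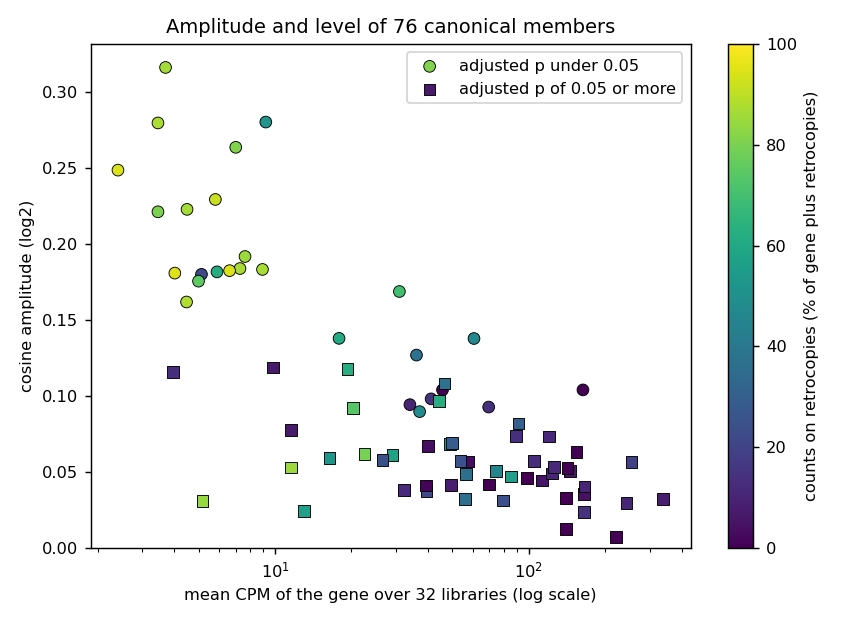
Cosine amplitude (log2, axis from 0) against mean level (CPM, log axis) for the 76 canonical genes, with the percentage of counts on retrocopies as colour, circles for called genes and squares for the rest. The highest points are genes under 10 CPM, which are mostly of a colour above 50%, while genes of 100 CPM or more lie low and dark. Not all genes under 10 CPM lie high: Rpl13a, Rpl27 and Rpl10 lie below the more abundant Rpl14.

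To see what the family as a whole did, the counts of retrocopies were added to the gene with which they share most, and all genes were fitted again. This was chosen after the data had been seen. The cosine test then called 9 of the 76 canonical genes (11.8%), against 35.9% of all genes in that fit, where it had called 27 with the gene alone. The 9 were Rpl3 (adjusted p = 0.00112), Rpl8 (0.00437), Rpl21 (0.0128), Rpl29 (0.0158), Rpl10a (0.0166), Rpl36 (0.0337), Rps12 (0.0346), Rps21 (0.0352) and Rps18 (0.0399). All 9 were among the 27 and peaked in the dark phase. With the gene alone, omission of a single library lost the call of Rps18 in 17 of 32 cases, of Rpl21 in 12, of Rps21 in 10, of Rpl36 in 3 and of Rpl29 in 1. Single libraries were not left out of the fit with retrocopies. Of the 29 genes with fewer counts than their retrocopies 1 was called, and of the other 47 genes 8.

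For Rpl31, Rps6 and Rpl14 the fitted amplitude was lower in the sum than in the gene alone. The sum of Rpl31 and its retrocopies had 26.2, 29.2, 26.0 and 25.6 CPM at ZT6 and 33.2, 29.8, 31.3 and 27.9 CPM at ZT18. The groups overlapped, and the amplitude was 0.06 ± 0.04 SE (adjusted p = 0.381) where that of Rpl31 alone was 0.32. The sum of Rps6 and its retrocopies had 31.6, 38.2, 34.5 and 43.8 CPM at ZT6 and 38.1, 39.7, 37.6 and 38.2 CPM at ZT18, with an amplitude of 0.01 ± 0.03 SE (adjusted p = 0.937). For Rps6 alone the values were 2.69, 4.79, 3.87 and 4.29 CPM at ZT6 and 5.51, 6.24, 4.00 and 5.68 CPM at ZT18, which also overlapped, with an amplitude of 0.16 ± 0.05 SE (adjusted p = 0.032). For Rpl14 the amplitude went from 0.17 to 0.06 ± 0.03 SE (adjusted p = 0.158), and Rpl14-ps1, with 71.2 CPM, had 0.02 ± 0.03 SE (adjusted p = 0.882).

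Rpl3 and Rpl8 were called in the sum as well. The sum for Rpl3 had 95.7, 113, 101 and 105 CPM at ZT0 and 132, 133, 119 and 136 CPM at ZT12, without overlap (amplitude 0.12 ± 0.02 SE, peak ZT12.7). Rpl3-ps1 was itself called, with an amplitude of 0.10 ± 0.02 SE and a peak at ZT12.6 (adjusted p = 0.0104), close to that of Rpl3. Rpl8 had next to no counts on retrocopies, and its amplitude was 0.10 before and 0.11 after. Of the 128 retrocopies that passed the filter 9 were called, 7 with a dark peak, where 35.8% of all genes tested were called and 17.6% with a dark peak. Whether a gene and its retrocopies differ in rhythm was not tested.

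**Figure D5:**
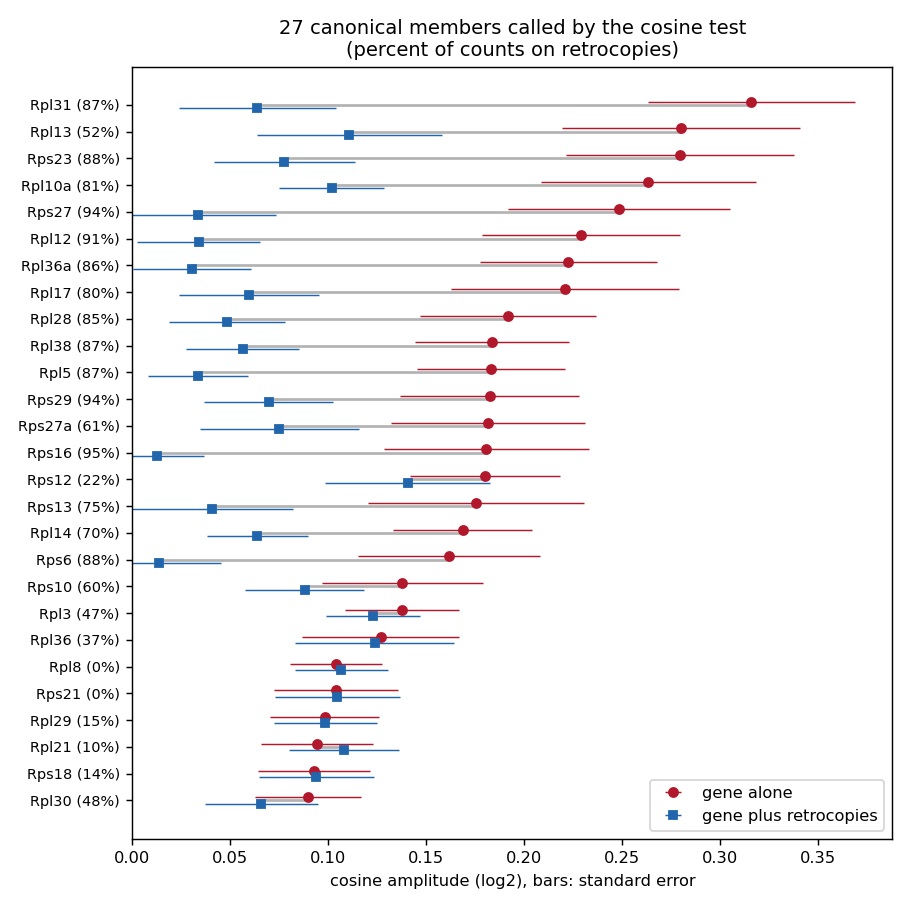
Cosine amplitude (log2, axis from 0) with its standard error for the 27 called canonical genes, as red circles for the gene alone and blue squares for the gene with its retrocopies, with the percentage of counts on retrocopies beside each name. Pairs lie far apart for genes of high percentage such as Rpl31 and Rps16 and close together for Rpl3, Rpl8, Rps21, Rpl29, Rpl21 and Rps18.

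In 3 other tests of time the sums gave fewer calls among the 76 canonical genes than the gene alone. For any difference between time points 5 were called in place of 16 (39.4% of all genes), and beside lane 1 in place of 3 (Rpl8, adjusted p = 0.0428, against 17.1% of all genes). For dark against light 6 were called in place of 17, all higher in the dark (7.08% of all genes). For ZT12 against ZT0 the sums gave 1 call (15.8% of all genes), Rpl3, which was also the 1 canonical gene called alone. The share of family counts on retrocopies ranged from 28.4% ± 0.4 at ZT12 to 29.5% ± 0.3 at ZT0 (SD, n = 4 each). Its mean was 29.3% to 29.5% at ZT0, ZT3 and ZT6 (lane 2) and 28.4% to 29.0% at the other time points (lanes 3 and 4). Lane and time point cannot be told apart in this difference.

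Ribosomal protein genes are widely used as references in quantitative PCR. Of 9 such genes the cosine test called 3, against 35.8% of all genes tested, each with a dark peak: Rps29 (1.29-fold, adjusted p = 0.00959), Rps16 (1.29-fold, 0.0304) and Rps18 (1.14-fold, 0.0395). With retrocopies added Rps29 had an adjusted p of 0.197 and Rps16 of 0.897, and Rps18 of 0.0399. With the gene alone the call of Rps18 was lost in 17 of 32 omissions of a single library and that of Rps16 in 5, whereas that of Rps29 was lost in none. Rplp0, Rps3, Rpl13a (adjusted p = 0.923), Rpl19 (0.203), Rpl32 (0.328) and Rpl27 (0.331) were not called. Rpl13a, with 84.3% of its family counts on Gm11478, was among the genes of low counts that were not called, at 5.17 CPM. Of 3 proteins used as ribosome tags or as readouts of signalling, Rpl10a and Rps6 were called and Rpl22, the protein tagged in RiboTag mice, was not (adjusted p = 0.48).

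Of the 13 paralogs and retrocopies the cosine test called 2, against 35.8% of all genes tested. Rpl7l1, a nucleolar protein related to Rpl7, had a mean of 39.6 CPM, and 98.3% of its 100-base stretches occurred in no other annotated transcript. It peaked at ZT21.5 (1.27-fold, adjusted p = 0.0249), as did Rps4l, annotated as a transcribed processed pseudogene, at ZT21.7 (1.28-fold, adjusted p = 0.0301). Rps4l had 15.0, 18.6, 18.6 and 18.1 CPM at ZT0 and 14.9, 13.3, 13.3 and 14.3 CPM at ZT3, without overlap and within lane 2. Rps19bp1, with 9.03 CPM, peaked at ZT21.7 as well (1.22-fold, adjusted p = 0.0176). These 3 peaks lay later than those of the called canonical genes, the latest of which was at ZT19.2, although the difference between them was not tested.

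The other paralogs and retrocopies were not called. Rps27l, a paralog induced by p53, had an adjusted p of 0.0852 at 46.4 CPM and Rpl36al of 0.0912 at 23.4 CPM. Rps3a3 (0.142), Rpl37rt (0.184), Rps3a2 (0.288), Rpl6l (0.577), Rpl32l (0.724), Rpl22l1 (0.811), Rps27rt (0.838) and Rpl39l (0.997) had higher adjusted p. Rpl3l, the paralog that takes the place of Rpl3 in skeletal and heart muscle, had the largest fitted amplitude, 1.15 ± 0.62 SE, but was not called (adjusted p = 0.602).

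Rpl3l was high in the libraries in which muscle markers were high. In the 16 libraries in which 14 skeletal muscle markers summed to 816 CPM or more, Rpl3l lay between 2.46 and 26.5 CPM with a median of 9.09. In the other 16 libraries, where the markers summed to 301 CPM or less, it lay between 0 and 1.01 CPM. The 2 sets, divided after the values were seen, did not overlap. None of the 14 muscle markers was called by the cosine test in edgeR (none at unadjusted p under 0.05, and none by JTK), and with their summed level as a covariate the test called 29 of the 90 genes, 28 of which were among the 30.

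Canonical genes varied together between mice. Over 2850 pairs of the 76 genes the median correlation of log2 levels over 32 libraries was 0.42, and 97.0% of pairs were positive. After subtraction of the time-point means it was 0.40. Among the 2000 genes of highest level the median was 0.06. These correlations are descriptions, since all genes share the depth and scaling of a library.

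Genes that build or use ribosomes were examined beside them from lists, against 35.8% of all genes tested that the cosine test called (17.6% with a dark and 18.3% with a light peak) and 16.9% that it called beside lane. Of 46 ribosome biogenesis factors the cosine test called 30, 28 with a dark peak, and 15 beside lane. Wdr75, a factor of the small-subunit processome, had an amplitude of 0.22 ± 0.04 SE with a peak at ZT20.7 (adjusted p = 0.000143). Ebna1bp2, a factor of the large-subunit pathway, had 0.23 ± 0.04 SE with a peak at ZT20.3 (adjusted p = 0.000218). Dkc1, the pseudouridine synthase of rRNA, was 1 of the 2 with a light peak (ZT8.9, 0.17 ± 0.03 SE, adjusted p = 6.82e-05). Of 12 genes of RNA polymerase I and its factors 7 were called, 6 with a dark peak, and 2 beside lane, led by Polr1a, its largest subunit (0.25 ± 0.05 SE, ZT15.9, adjusted p = 0.00139), Ttf1 and Ubtf.

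Genes of translation itself did not all follow. Of 22 elongation and other TOP-type genes 11 were called, 3 with a dark peak and 8 with a light peak, where 35.8% of all genes tested were called, 17.6% with a dark and 18.3% with a light peak. Beside lane 4 of the 22 were called. Eif4b peaked at ZT8.8 (amplitude 0.21 ± 0.03 SE, adjusted p = 2.24e-05), Pabpc1, the cytoplasmic poly(A)-binding protein, at ZT11.8 (0.17 ± 0.03 SE, adjusted p = 7.51e-05) and Eef2, the translocase of elongation, at ZT11.3 (0.14 ± 0.02 SE, adjusted p = 0.000215). All of these peaks lay in the light phase, those of Pabpc1 and Eef2 within its last hour. Of 28 initiation factors 12 were called, 10 with a dark peak, and 5 beside lane, with Eif4g1, Eif4g3 and Eif4e at the lowest p. Of 77 mitochondrial ribosomal proteins, which build a separate ribosome, 20 were called, all with a dark peak, led by Mrps6 (ZT23.6), Mrps22 (ZT22.9) and Mrpl50 (ZT21.0). Beside lane 2 of the 77 were called.

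Of 29 genes of the mTORC1 pathway 10 were called, 4 with a dark peak, and 8 beside lane, led by Akt1 (ZT10.8), Akt2 (ZT8.7) and Ddit4 (ZT10.8), an inhibitor of mTORC1 with an amplitude of 0.67 ± 0.12 SE (adjusted p = 0.000127). Of 9 Rps6 kinases 3 were called beside lane and 1 by the cosine test without lane, Rps6ka3 (ZT23.7, 0.26 ± 0.03 SE, adjusted p = 3.51e-07). Of 12 transcription factors known from ribosomal protein promoters 7 were called, 5 with a dark peak, and 4 beside lane, with Nrf1 (ZT16.5, 0.23 ± 0.03 SE, adjusted p = 2.11e-05), Sp3 and Yy1 at the lowest p. Of all genes tested 35.8% were called, and 16.9% beside lane.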

How the data were processed

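RNA-seq was performed on total RNA of iBAT from 32 mice. Raw read counts per gene were deposited by the authors. Per the labels and the methods of the study, stranded libraries were sequenced as 100 bp paired-end reads, mapped with GSNAP to mm10 and counted with HTSeq-count (0.6.1). The strand setting and the treatment of reads with several matches are not given in the sources used here. Gene lengths, retrocopies and coding sequences came from GENCODE M21, which is on the same build but is not the annotation of the authors, and start windows from RefSeq. Uniqueness of 100-base stretches was judged against annotated transcripts on both strands, not against the whole genome as planned.

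Genes were filtered with filterByExpr by time point, which kept 15505 genes, scaled by TMM and tested with edgeR 4.0.16 (R 4.3.3) at a BH adjusted p under 0.05 over all tested genes. JTK was an own implementation on CPM with templates of 21 and 24 h. Amplitudes, their SE and peaks were estimated on log2 CPM (prior count 2). The tests were checked on simulated data. The members and lists were chosen with earlier results of these data known. Alternatives were DESeq2 1.42.0 and its size factors, library size, no filter, removal of mitochondrially encoded genes, TMM without the members, lane, replicate block and omission of each library. The lowest mean chi-square per gene among 48 pairs of libraries of 1 time point was 7.37, so all 32 libraries were treated as separate samples.

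Named genes were the 3 with the lowest and the 1 with the highest cosine p per subunit, the extremes of amplitude at 10 CPM or more and of level per kb, all paralogs, PCR reference and tag genes, members called within lanes or beside lane, members at the count limit, and up to 3 genes per other list. Genes named for their retrocopies, in the 3 h steps and in the sums were chosen after their values were seen. A few items, among them 1 gene of high level per kb, are not reported here.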

Additional observations from a re-analysis of the deposited data

Results flagged for a closer look

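In 88 groups of 4 libraries (10 genes and the summed level at 8 time points) 1 library lay far from the other 3 in 6, by Dixon's criterion at the 95% level. Chance alone picks out about 1 group in 20, or 4.4 of 88. Rps23 had 3.44 CPM in replicate 4 of ZT18, where the others had 5.07 to 5.24 CPM. Rpl14 had 36.3 CPM in replicate 2 of ZT0, where the others had 28.1 to 29.3 CPM. Rpl3 had 63.9 CPM in replicate 3 of ZT12, where the others had 72.8 to 73.9 CPM. Rpl3l had 26.1 CPM in replicate 2 of ZT3 (others 0 to 0.36 CPM) and 6.56 CPM in replicate 2 of ZT6 (others 0.167 to 0.28 CPM). In these 2 libraries the skeletal muscle markers summed to 8139 and 2056 CPM, and their part in the result was not tested. The summed level of the 90 genes was 4591 CPM in replicate 4 of ZT21, where the others had 5076 to 5162 CPM.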

How the results depend on the processing

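For the 24 h cosine component the number of members called was 30. It was 3 with lane as an additive factor, 9 of 76 with retrocopy counts added, 8 without the ZT18 libraries and 15 among the 57 members with at least 50% own stretches. Retrocopy counts, omission of ZT18 and the muscle covariate were chosen after the data had been seen. For any difference between time points the 18 calls became 11 without a filter, 5 of 76 with retrocopy counts (16 of these 76 with the gene alone), 4 without ZT18 and 10 among members with own stretches. The 18 JTK calls became 28 at unadjusted P, 6 with retrocopy counts and 8 with own stretches. Within lane 2 the 2 calls became 1 with library size alone, 1 without a filter and 1 with a replicate block, and within lane 4 DESeq2 gave 1 in place of 0. For ZT12 against ZT0 the 2 calls became 1 with own stretches and 1 with retrocopy counts, where Rpl7l1 was not among the 76 genes counted and Rpl3 was called in both. For dark against light the 17 calls became 6 with retrocopy counts, 2 without ZT18 and 8 with own stretches. Fewer members enter with own stretches, and fewer libraries without ZT18. With retrocopy counts 76 genes enter, of which the gene alone gave 27 calls for the cosine and 17 for dark against light. The causes of the changes were not tested. No result changed direction. Of all genes tested the cosine test called 35.8%, and 16.9% with lane as an additive factor. With retrocopy counts the shares of all genes were 35.9% for the cosine, 39.4% for any difference and 14.1% for dark against light. Shares without ZT18 are given above for the cosine and for dark against light. Those of the other refits and of the omissions below are not given here, so those changes cannot be set against all genes. With DESeq2, with its size factors, without mitochondrially encoded genes and with TMM factors computed without the members the cosine test called 30 members, the same 30 each time.

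With 1 library left out, the counts ranged from 21 (without ZT18 replicate 2) to 32 for the cosine, from 14 to 20 for time, from 15 to 21 for JTK, and from 12 to 23 (without ZT0 replicate 2) for dark against light. Of the 30 cosine calls 18 were lost in no omission, and 5 in 10 or more of the 32: Rps13 and Rps18 in 17, Rpl30 in 13, Rpl21 in 12 and Rps21 in 10. For lane 2 they ranged from 0 (without ZT0 replicate 2) to 5 (without ZT0 replicate 4), and for ZT12 against ZT0 from 1 (without ZT0 replicate 3) to 4 (without ZT0 replicate 2). They stayed at 0 for lanes 3 and 4. The log2 difference of the summed level ranged from 0.02 to 0.09 for ZT12 minus ZT0 and from 0.03 to 0.06 for dark minus light. Replicate numbers were not seen to pair mice: deviations of same-numbered libraries had mean correlations from −0.04 to −0.03, and 8 of 32 libraries correlated best with their own number. With the replicate block the counts were 30 for the cosine, 18 for time, 21 for JTK, 2 for ZT12 against ZT0 and 17 for dark against light.

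Counts were low in some genes, such as Rps27 with 1338 over all 32 libraries. Lane and time point cannot be told apart across lanes, and counts on gene and retrocopy depend on the read assignment of the authors.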

Other observations

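Other lists of genes were fitted in the same model, in which 35.8% of all genes were called. All 15 clock genes were called, led by Dbp (amplitude 2.66 ± 0.10 SE, peak ZT10.1, adjusted p = 5.91e-18) and Npas2 (2.54 ± 0.14 SE, peak ZT0.8). Of 12 brown adipocyte markers 2 were called, both with a light peak, Adrb3 and Ucp1 (ZT6.5, adjusted p = 0.0118). Markers of other cells with a light peak were called in 5 of 13 lymphoid, 4 of 10 macrophage and 5 of 8 stroma genes. Of the remaining lists 3 of 6 white adipocyte, 2 of 7 endothelial and 2 of 7 nerve and glia markers were called, and none of 14 muscle markers, 6 blood markers or 9 early response genes (edgeR; none of these at unadjusted p under 0.05, and none by JTK). The stroma markers summed to 438 to 660 CPM at ZT0 and to 762 to 1211 CPM at ZT3, which were on the same lane.

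Of the 76 canonical genes, those with no retrocopy that shares a 100-base stretch numbered 7. The cosine test called 1 of them, Rps21, against 35.8% of all genes tested. That call was lost in 10 of 32 omissions of a single library. The median share of 100-base stretches found in no other annotated transcript was 67.2% over the 90 genes, and it was 100% in 9 of them.

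Rps4x and Rpsa, which were not called, had a retrocopy that was. Gm13680, a copy of Rps4x, had a peak at ZT7.8 (amplitude 0.17 ± 0.05 SE, adjusted p = 0.0178). Rpsa-ps10, a copy of the laminin receptor gene Rpsa, peaked at ZT2.6 (0.10 ± 0.03 SE, adjusted p = 0.0226). Rpsa itself was the only member with its lowest mean at ZT18.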
